A study of Solea senegalensis with 30 samples.

Results

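The plasma microRNAs (miRNAs) of control males of Senegalese sole (Solea senegalensis) at 4 d after a saline injection were compared with those of control males at 2 d. The 9 fish were the untreated males among the 30 fish with plasma small RNA libraries, 5 at 4 d (A3-2, A3-5, A3-6, A3-9 and A3-11) and 4 at 2 d (A2-11, A2-12, A2-14 and A2-16), and they were selected by sex, treatment and sampling point as labelled. All were adult G1 breeders, which are fish reared in captivity from wild parents, and all were given phosphate buffered saline (PBS) into the muscle during the reproductive season, as the placebo of a trial of the kisspeptin decapeptide KISS2-10. The other fish used here for side values were kisspeptin males (5 at 4 d and 6 at 2 d, injected at 250 µg/kg) and 5 control females at 2 d. In each treatment the fish bled at 4 d (and at 4 h) were held in a different tank from those bled at 2 d (and at 2 h), so day and tank cannot be told apart in any comparison below, and no library from before the injection was among the 30. Each library is a separate fish, and the libraries were sequenced in 2 runs whose members the labels do not give, so no value within runs was obtained.

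A miRNA is a short RNA that guides a silencing complex to messenger RNAs, mainly through its seed, the bases 2 to 8 from the 5′ end, so that miRNAs with one seed form a family. Plasma carries miRNAs released from blood cells, vessel walls and organs, inside vesicles or bound to protein, and many of them have a tissue of origin known from other vertebrates. Red cells are rich in miR-451 and miR-144, skeletal muscle in miR-1, miR-133 and miR-206, liver in miR-122, and endothelium in miR-126. In plasma, a change in release, in the number of cells of a type and in the RNA held by each cell cannot be told apart.

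The counts were given for each distinct read sequence (isomiR) and were summed to miRNA names, of which the file holds 172, from miR-122-3p to miR-459 in alphabetical order. Names outside that range, such as the let-7 family, were not analysed here. Totals ran from 31354 to 133423 counts at 4 d (median 93047) and from 29918 to 65358 at 2 d (median 40607.5). Of the 172 names, 43 were counted in all 9 fish, while 16 were counted only at 4 d and 13 only at 2 d. Values are given as cpm, counts scaled to a common library total with TMM factors, which ran from 0.702 (A3-6) to 1.21 (A2-11), and a log2 fold change is 4 d over 2 d. Values of single fish follow the order of the labels above, 5 at 4 d and then 4 at 2 d. None of the 16 pairs of libraries of the same day was identical, and each pair differed beyond sampling of the same counts (chi-square over its degrees of freedom, 62.0 at the lowest).

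The read sequences below carry the comparisons that follow, as DNA letters from the counts file, 5′ to 3′, with the seed in capitals. For each name the leading form is shown, the isomiR with the most counts in the 9 fish. The first set holds miRNAs whose fish stood apart by day or that had small p-values, and no seed is shared among them.
miR-184-3p: tGGACGGAgaactgataagggc
miR-130b-5p: aCTCTTTCcctgttgcactact
miR-150: aCTCCCAAtccttgtaccagt
miR-192: aTGACCTAtgaattgacagcc
miR-202-5p: tTCCTATGcatatacctcttt
miR-199a-5p: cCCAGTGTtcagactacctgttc
miR-214-3p: tACAGCAGgcacagacagg
miR-203a: gTGAAATGtttaggaccacttg

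The second set holds the muscle miRNAs, since the single isomiR past the threshold was among them. The miR-1 names and miR-206-3p share the seed GGAATGT, and the 23-nt form of miR-206-3p is its leading form with a single base more at the 3′ end. The liver miRNA miR-122-5p, whose seed GGAGTGT is near it, is given beside them.
miR-1a-3p leading form, 22 nt: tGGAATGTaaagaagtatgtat
miR-1a-3p second form, 21 nt: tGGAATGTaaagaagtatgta
miR-1c: tGGAATGTaaagaagtatgtac
miR-206-3p leading form, 22 nt: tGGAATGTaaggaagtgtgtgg
miR-206-3p, 23 nt: tGGAATGTaaggaagtgtgtggt
miR-122-5p: tGGAGTGTgacaatggtgttt

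The third set holds abundant names, together with pairs that differ by little: the leading form of miR-16a is the start of that of miR-16b, and miR-26a and miR-26b have the seed TCAAGTA in common, so the counting could move reads between such names.
miR-21: tAGCTTATcagactggtgttgg
miR-22a: aAGCTGCCagctgaagaactgt
miR-451: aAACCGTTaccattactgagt
miR-16b: tAGCAGCAcgtaaatattggag
miR-16a: tAGCAGCAcgtaaatattgg
miR-26a: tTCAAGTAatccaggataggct
miR-26b: tTCAAGTAatccaggataggtt

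No miRNA name passed the threshold between 4 d and 2 d. Of the 103 names with at least 1 cpm in at least 4 fish, 0 (0%) had an adjusted p under 0.05 in the quasi-likelihood test of edgeR, and 7 (6.8%) had an unadjusted p under 0.05, 4 of them higher and 3 lower at 4 d. On the same 103 names limma-voom called 2 (miR-184-3p higher and miR-199a-5p lower at 4 d) and DESeq2 called 4, those 2 with miR-1a-3p and miR-130b-5p, both higher. By sign alone, 47 names were higher and 56 lower at 4 d, with a median log2 fold change of −0.12, and with no scaling factors the log2 fold changes moved by a median of −0.19, which gave 38 higher and 65 lower. All 5 fish at 4 d stood above all 4 at 2 d for 2 names (1.94% of those tested), miR-184-3p and miR-130b-5p, and below them for 1 name (0.971%), miR-199a-5p. Fish of the same day differed widely (common dispersion of 1.58).

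**Figure D1:**
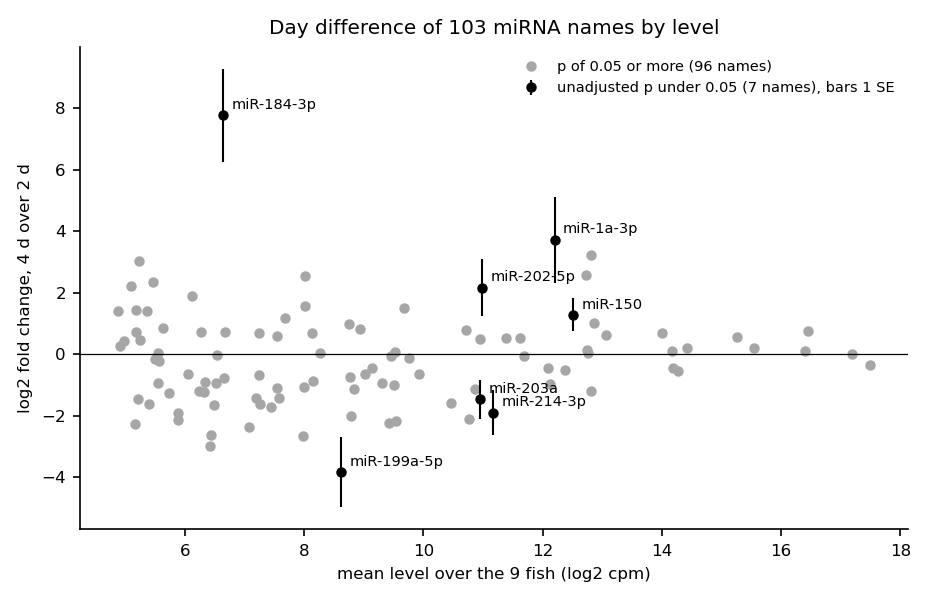
Day difference (log2 fold change, 4 d over 2 d) of the 103 names tested, against their mean level over the 9 fish in log2 cpm. Each point is a name, and the 7 names with an unadjusted p under 0.05 are labelled, with bars of 1 SE. The widest differences lie at low and middle levels, and miR-184-3p, at 0 in every fish of 2 d, has a fitted value that depends on the prior count.

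As whole profiles the days did not pass the test of separation with all 9 fish. Day held 16.1% of the variation among the 9 libraries over the 103 names (exact one-sided permutation test over all assignments of the fish to days, p = 0.0952, 0.286 after adjustment over 9 single values). Without A3-11 day held 18.5% (exact p = 0.0286), and without scaling factors 17.3% (exact p = 0.0476), neither adjusted. Euclidean distances in log2 cpm had a median of 29.4 between fish of 4 d, 25.8 between fish of 2 d and 28.6 between fish of different days. The typical distance within 4 d was thus no shorter than that between the days.

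Among the names analysed, red cell, endothelial and broadly expressed miRNAs led the plasma of these males. The study reported let-7e-5p, which was not analysed here, as its highest miRNA. The 10 names with the highest mean level were miR-21, miR-22a, miR-451 with miR-144-5p, miR-16b with miR-15a, miR-126a-3p, miR-146a, miR-125a and miR-26b, none with an unadjusted p under 0.05. miR-21 stood at 217386, 173853, 230848, 226634 and 54399.8 cpm at 4 d, against 198342, 228316, 257462 and 199418 cpm at 2 d. miR-21, a miRNA found at high levels in many cell types, was the highest name in most fish, and A3-11 lay far below the other 8, with a log2 fold change of −0.36 (SE 0.40, adjusted p = 0.786). miR-22a stood at 216817, 163114, 183397, 95162 and 139050 cpm at 4 d, against 110066, 159634, 200028 and 128824 cpm at 2 d. The days overlapped throughout for this broadly expressed miRNA, and its log2 fold change was −0.00 (SE 0.31, adjusted p = 0.989). miR-451 stood at 67561, 58886, 197467, 133352 and 184090 cpm at 4 d, against 56055, 37556, 85971 and 109384 cpm at 2 d. miR-451, which in other vertebrates is made in maturing red cells without Dicer, had 3 fish of 4 d above every fish of 2 d and 2 within their range (log2 fold change 0.76, SE 0.46, adjusted p = 0.78). miR-144-5p, made from the same transcript as miR-451 in other vertebrates, ranged over 16196 to 42915 cpm at 4 d and 10574 to 31083 cpm at 2 d. miR-126a-3p, the endothelial miRNA, ranged over 31769 to 69266 cpm at 4 d and 19956 to 38120.3 cpm at 2 d, and 4 of the 5 fish of 4 d lay above every fish of 2 d (log2 fold change 0.56, SE 0.38, adjusted p = 0.78). miR-146a, a miRNA of inflamed tissue and white cells, ranged over 35696 to 66325 and 40883 to 50195 cpm at 4 d and 2 d (log2 fold change 0.21, SE 0.34, adjusted p = 0.851). The family of miR-15 and miR-16, which slows the cell cycle in mammals, gave 0.10 for miR-16b and −0.54 for miR-15a on the log2 scale, and miR-26b and miR-125a gave −0.46 and 0.10.

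The share of the counts in the 10 highest names was lower in mean at 4 d. These names held 68.7% ± 4.72 of all counts at 4 d (SD, n = 5), against 76.6% ± 3.74 at 2 d (SD, n = 4), a difference of −7.80 percentage points (two-sided exact permutation test, p = 0.0397), which did not pass after adjustment over the 9 single values (exact adjusted p = 0.25). The shares ran from 62.2 to 74.5% at 4 d and from 73.0 to 81.2% at 2 d, so that A3-11 alone entered the range of 2 d. The difference lost an exact p under 0.05 when any fish but A3-11 was left out. The share of the single highest name of each library differed by −4.88 percentage points (exact p = 0.0317).

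**Figure D2:**
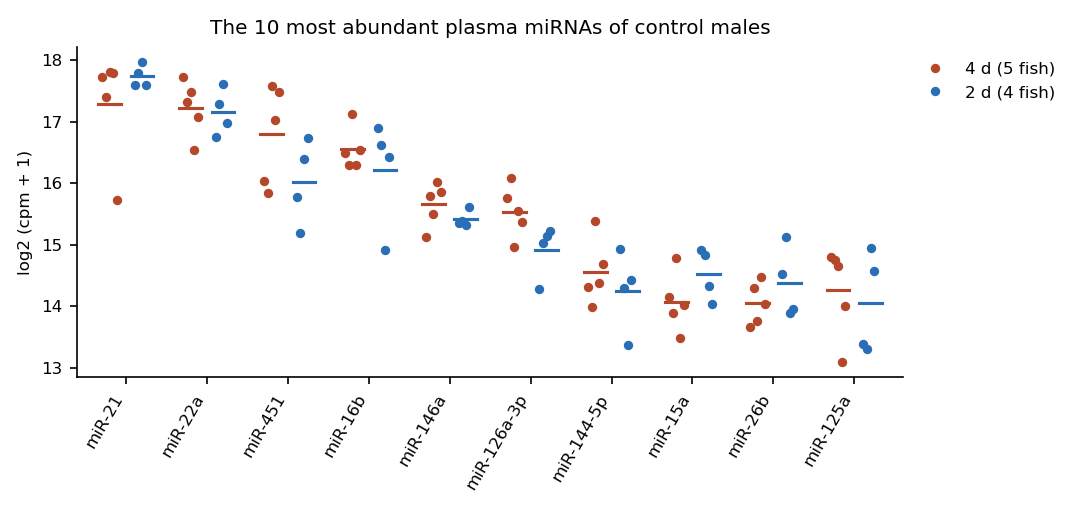
Levels of the 10 most abundant names in log2 of cpm plus 1, with 1 point per fish (5 at 4 d on the left of each pair, 4 at 2 d on the right) and the mean as a line. The days overlap for every name, and the lowest miR-21 value, that of A3-11, lies well below the other 8.

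Among the names that leaned higher at 4 d, miR-184-3p had the smallest p. It stood at 311, 709, 475, 247 and 474 cpm at 4 d and at 0 in all 4 fish at 2 d. For counting error only, a count of 0 allows up to 3 counts, or 43.8 to 90.1 cpm in the libraries of 2 d. On that bound the mean of 4 d was at least 6.71-fold higher (adjusted p = 0.108 in the test of edgeR). With no count at 2 d, it passed the filter of 4 fish only through the fish of 4 d, the day on which it was high, so its p and its place among the names with the days apart come with that selection. miR-184 is known chiefly from the lens and cornea of the vertebrate eye. Its 163 counts came from different read sequences in different fish: the 22-nt leading form gave 69, 32 and 17 counts in A3-5, A3-9 and A3-11, while A3-6 had 28 counts of a 20-nt form and 5 of a 19-nt form, and A3-2 had 12 of another 20-nt form. miR-130b-5p stood at 2071, 802, 1109, 1156 and 1755 cpm at 4 d, against 527, 321, 601 and 357 cpm at 2 d. This is the strand opposite to miR-130b-3p, whose seed is the one known from miR-130 and miR-301, and every fish of 4 d stood above every fish of 2 d (log2 fold change 1.51, SE 0.69, adjusted p = 0.606).

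miR-1a-3p, the muscle miRNA, was next in p among the names that leaned higher. It stood at 28966, 7214, 133065, 12049 and 2173 cpm at 4 d, against 3224, 5991, 210.3 and 335 cpm at 2 d. A3-2, A3-5, A3-6 and A3-9 stood above all fish of 2 d and A3-11 below A2-11 and A2-12, with a log2 fold change of 3.72 (SE 1.40, adjusted p = 0.606). As a single value, its log2 level was 13.86 ± 2.22 at 4 d and 10.12 ± 2.33 at 2 d (SD, n = 5 and 4; two-sided exact permutation test, p = 0.0556, adjusted 0.25). Leaving out A3-11, the only fish of 4 d not above all of 2 d, sets the days apart by that choice. The exact p was then 0.0286, the lowest that 4 fish against 4 allow. Over the alternative settings the exact p ran up to 0.125. The other muscle names leaned the other way: miR-1c stood at 0, 2785, 1454, 416 and 83.6 cpm at 4 d, against 1475, 3171, 601 and 1897 cpm at 2 d (log2 fold change −0.93, SE 1.30, adjusted p = 0.816). The leading forms of miR-1a-3p and miR-1c differ only in the last base, so shorter reads do not tell the names apart. Such reads include the 21-nt second form of miR-1a-3p (553 counts in A3-5, 1526 in A3-9) and a 20-nt form of miR-1c (213 counts, in A3-5). All of these counts were in fish of 4 d, the day on which miR-1a-3p leaned higher and miR-1c lower. How far the leanings of these names rest on such reads was not tested. miR-206-3p stood at 440.1, 421, 41835, 6587 and 15069 cpm at 4 d, against 2402, 60703, 16942 and 25845 cpm at 2 d. The 2 lowest values of miR-206-3p were those of A3-2 and A3-5 and the highest that of A2-12, with a log2 fold change of −1.20 (SE 1.25, adjusted p = 0.786). miR-133a-3p, with counts in 1 fish of 4 d and 3 of 2 d, leaned lower too (log2 fold change −2.13), miR-133a-5p, miR-133d and miR-1b were at 0 in all 9 fish, and miR-208 and miR-499 were not analysed here.

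Of the 4 names higher at 4 d with an unadjusted p under 0.05, the remaining ones were miR-150 and miR-202-5p. miR-150 stood at 17602, 7430.2, 3816, 10971 and 8384 cpm at 4 d, against 2761, 4764, 4205 and 2946 cpm at 2 d. In mice miR-150 marks mature lymphocytes. A3-6 alone lay in the range of 2 d, and the log2 fold change was 1.28 (SE 0.54, adjusted p = 0.606). miR-202-5p stood at 1605, 2836, 1195, 14769 and 6880.1 cpm at 4 d, against 1538, 1534, 1382 and 290.1 cpm at 2 d. miR-202 is expressed in the testis and ovary of fish. A3-9 and A3-11 were highest and A2-16 was lowest, while A3-6 lay below 3 of the 4 fish of 2 d (log2 fold change 2.17, SE 0.93, adjusted p = 0.606). miR-192 stood at 19466, 6382, 8684, 8744 and 11866 cpm at 4 d, against 5015, 4048, 4446 and 6807 cpm at 2 d. miR-192, known from intestine, liver and kidney, overlapped only through A3-5, which lay just under A2-16 (log2 fold change 1.00, SE 0.46, adjusted p = 0.606). miR-26a stood at 854, 126436, 129739, 124885 and 474 cpm at 4 d, against 5837, 22329, 2884 and 134 cpm at 2 d. miR-26a, broadly expressed, had 3 fish of 4 d (A3-5, A3-6 and A3-9) far above every fish of 2 d and 2 below 3 of the 4, so its log2 fold change of 3.22 (SE 1.72, adjusted p = 0.78) describes neither set.

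Among the names that leaned lower at 4 d, miR-199a-5p had the smallest p. miR-199a-5p stood at 0, 154, 72.0, 61.6 and 529 cpm at 4 d, against 1749, 2440.4, 1712 and 2924 cpm at 2 d. Every fish of 4 d lay below every fish of 2 d, A3-2 had no count, and the log2 fold change was −3.84 (SE 1.13, adjusted p = 0.328). miR-199a and miR-214 are made from one transcript in other vertebrates and are known from mesenchyme and skeleton. miR-214-3p stood at 1113, 2343, 1066, 1949 and 1253 cpm at 4 d, against 5627, 6854, 9342 and 714 cpm at 2 d. A2-11, A2-12 and A2-14 stood above all fish of 4 d and A2-16 below them all, with a log2 fold change of −1.90 (SE 0.73, adjusted p = 0.606). The 3p strand miR-199a-3p was not lower with them: it was counted in 3 fish on each day, from 0 to 4840.4 cpm at 4 d and from 0 to 991 cpm at 2 d. miR-203a stood at 1087, 1932, 806, 655 and 2590.5 cpm at 4 d, against 3477, 2382, 6639 and 2701 cpm at 2 d. miR-203, the keratinocyte miRNA of mammalian skin, overlapped between the days only through A3-11 and A2-12 (log2 fold change −1.47, SE 0.65, adjusted p = 0.606).

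The other 5 of the 8 lower names with the smallest p were at low to middle levels, and none had an unadjusted p under 0.05. miR-22-3p ranged over 0 to 143.88 cpm at 4 d and 84.3 to 721 cpm at 2 d (log2 fold change −2.99, SE 1.46, adjusted p = 0.678). Its leading form, with 67 of its 71 counts, differs by a single base from the start of that of miR-22a, which had 82905 counts. It also differs by a single base from the start of that of miR-22b, which had 30 counts. Whether these reads came from miR-22a or miR-22b was not tested. miR-1957a ranged over 0 to 154 and 102 to 541 cpm at 4 d and 2 d, and miR-16a over 0 to 585 and 150.2 to 4397 cpm. miR-27b-3p and miR-27e, from the cluster of miR-23, miR-24 and miR-27, gave log2 fold changes of −1.12 (SE 0.69, adjusted p = 0.78) and −0.96 (SE 0.60, adjusted p = 0.78). Each of these 5 names was counted in all 4 fish of 2 d and miR-22-3p, miR-1957a and miR-16a were missing in 2, 3 and 2 fish of 4 d.

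**Figure D3:**
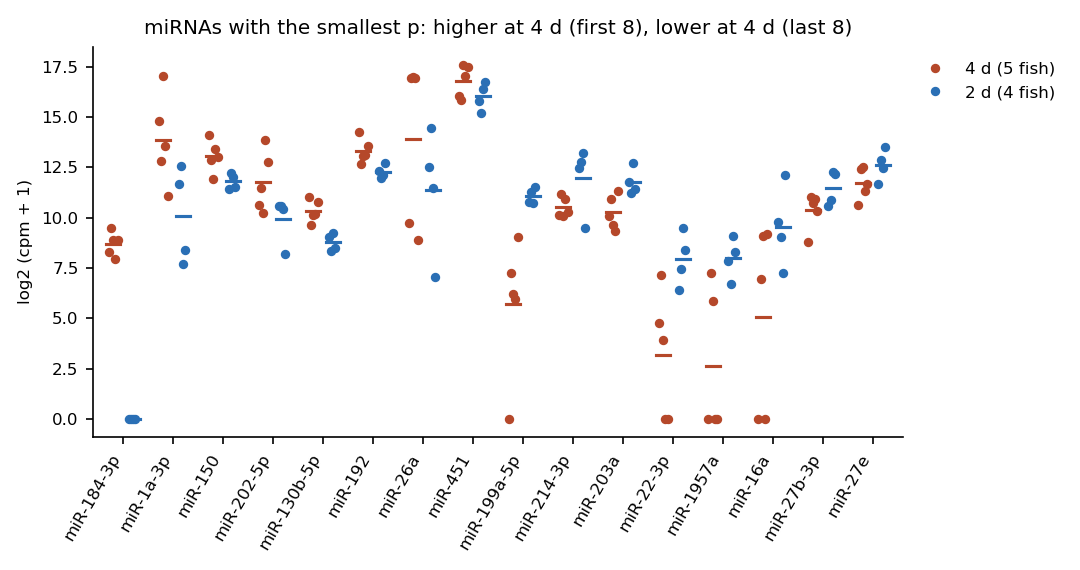
Levels in log2 of cpm plus 1 of the 8 names with the smallest p that leaned higher at 4 d and the 8 that leaned lower, with 1 point per fish (5 at 4 d on the left of each pair, 4 at 2 d on the right) and the mean as a line. Only miR-184-3p, miR-130b-5p and miR-199a-5p have the fish of the days apart, and miR-26a falls into 2 sets of fish at 4 d.

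At the level of single read sequences, 1 of 316 isomiRs passed the threshold (0.316%), the 23-nt form of miR-206-3p shown above, and 16 (5.06%) had an unadjusted p under 0.05. It had 0 counts in all 5 fish of 4 d, against 91, 198, 11 and 70 counts in A2-11, A2-12, A2-14 and A2-16 at 2 d. Its mean at 2 d was 1847 cpm, and the adjusted p was 0.0442 in the test of edgeR. If a 0 allows up to 3 counts, the 23-nt form was at least 39.6-fold lower at 4 d. That bound, like those of the isomiRs below, covers counting error only and not a form missing as a whole. The 22-nt form, a single base shorter, was counted in 3 fish on each day (2106, 788 and 442 counts in A3-6, A3-9 and A3-11, against 3377, 550 and 848 in A2-12, A2-14 and A2-16), and the name as a whole was not called. Having no count at 4 d, the 23-nt form entered the test only through the fish of 2 d, where it was high. With single fish left out, the 23-nt form kept an adjusted p under 0.05 without A2-14, A3-5 or A3-9 and lost it without any of the other 6. All 5 fish of 4 d stood above all 4 of 2 d for 4 isomiRs (1.27%) and below them for 5 (1.58%). Of these 9, 3 had no count in any fish of the day on which they were lower.

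Several isomiRs next in p were likewise at 0 throughout 1 day. In all, 8 of the 316 isomiRs tested were, and since the filter asks for counts in 4 fish these passed it only through the other day, so that their presence on 1 day is set by the filter and their small p (unadjusted p under 0.05 for 8 of 8) is no separate support. A 23-nt form of miR-31 had no count at 4 d and 18, 23, 2 and 10 counts at 2 d (at least 5.83-fold lower at 4 d, adjusted p = 0.31). A 23-nt form of miR-223-3p, the miRNA of granulocytes and monocytes, had 68, 81, 29, 99 and 0 counts at 4 d and none at 2 d (at least 10.1-fold higher at 4 d, adjusted p = 0.31). A 20-nt form of miR-21 was counted in 4 of the 5 fish of 4 d, with 23 to 170 counts, and in none of 2 d (at least 18.02-fold higher, adjusted p = 0.31). For both miR-223-3p and miR-21 the other forms were counted in every fish, although these forms were at 0 at 2 d. Among forms with counts in every fish, the 21-nt leading form of miR-202-5p and a 22-nt form of miR-192 had the smallest p, with log2 fold changes of 2.83 (SE 0.97, adjusted p = 0.562) and 1.26 (SE 0.48, adjusted p = 0.597). The 22-nt form of miR-192 had 264 to 532 counts in 4 fish of 4 d and fewer in A3-11, against 58 to 115 at 2 d. miR-1692 was split: of 2 forms of 18 nt that are offset by a base, the first had 11, 6, 2, 16 and 5 counts at 4 d and none at 2 d, and the second had 2 counts in A3-6 alone at 4 d, against 4, 4, 9 and 14 at 2 d. A 21-nt form of miR-203b-3p had 1 count, in A3-5, at 4 d, against 12, 5, 0 and 3 at 2 d (adjusted p = 0.562).

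The leading form of a name was often at 0 in a fish that had many counts of the name's other forms. Among the 37 names with at least 1000 counts in the 9 fish, 15 had their leading form in all 9, and for the other 22 it was at 0 in at least 1 fish that had 10 or more counts of other forms. This held for 92 of 333 pairs of a fish and a name, 51 of them at 4 d (5 fish) and 41 at 2 d (4 fish). miR-21 had 6586 to 23416 counts of its 22-nt leading form in 4 fish of 4 d and 6843 to 14096 in the 4 of 2 d, and 0 in A3-11, beside 839 counts of the 21-nt form and 578 of the 23-nt form. A3-11 is also the fish with the low miR-21 level. miR-26a had 10885, 8642 and 16051 counts of its leading form in A3-5, A3-6 and A3-9 and 0 in the other 6 fish, which are the sets into which its level fell. miR-1a-3p had its leading form only in A3-2 (1113 counts) and A3-6 (9217), while A3-5 and A3-9 had 553 and 1526 counts of the 21-nt form that lacks the last base, and the fish of 2 d had neither. Of miR-451, A3-2, A2-11, A2-12 and A2-14 had none of the leading form, and the other 5 fish had 3277 to 14707 counts of it. miR-22a differed from these, with 3848 to 12366 counts of its leading form at 4 d and 4156 to 8806 at 2 d.

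Some of the small-p names shared this. The 23-nt leading form of miR-199a-5p had 71, 57 and 131 counts in A2-11, A2-14 and A2-16 and none elsewhere, while the 22-nt form was counted in A2-12 (2043 cpm) and A3-11 (19 counts). For miR-214-3p, the 19-nt leading form had up to 278 counts in the 3 high fish of 2 d, 0 in A2-16 and, at 4 d, 18 in A3-2 and 0 in the rest. miR-150, miR-192 and miR-202-5p were different in that their leading forms were counted in all 9 fish. How the absence of single forms arose was not tested.

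**Figure D4:**
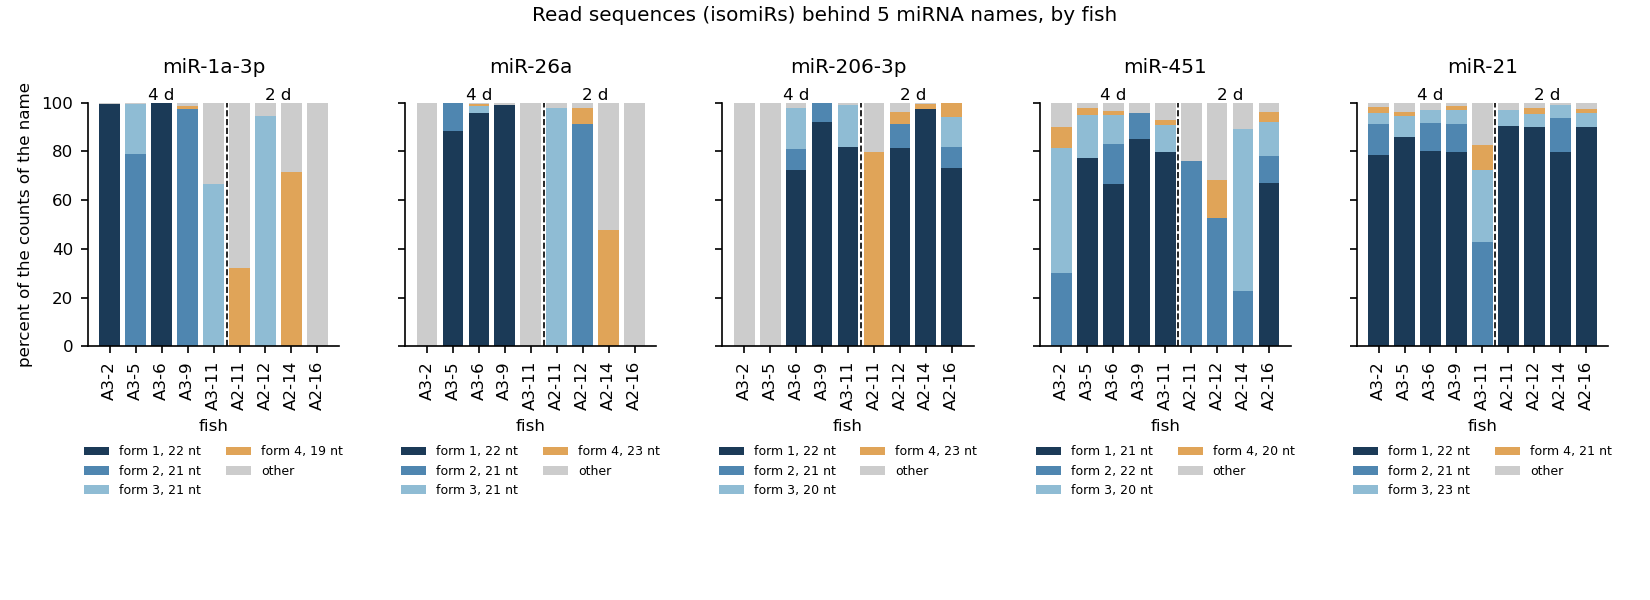
Percent of the counts of 5 names held by their 4 most abundant isomiRs (form 1 is the leading form, lengths in nt) and by all others, in each fish, 4 d left of the dashed line and 2 d right of it. Bars of one name differ from fish to fish within a day: form 1 of miR-26a is in A3-5, A3-6 and A3-9 only, and form 1 of miR-21 is in every fish but A3-11.

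Names were therefore also summed over only the 70 isomiRs counted in all 9 fish, a choice made after the counts had been seen, which left 19 names and 38.3% of the counts. The cpm of this sum are scaled to the total of these 70 isomiRs alone, with TMM factors of their own. They are therefore not on the scale of the cpm given elsewhere. In this sum 0 of 19 names had an adjusted p under 0.05 in the test of edgeR and 5 had an unadjusted one, and 17 of 19 kept the sign of the full sum. miR-202-5p gave a log2 fold change of 2.46 (SE 0.73, adjusted p = 0.0889), from 2213 to 29099 cpm at 4 d, against 899 to 3084 cpm at 2 d. miR-150 gave 1.08 (SE 0.39, adjusted p = 0.124) and miR-192 0.94 (SE 0.35, adjusted p = 0.124). The lower names were miR-27e at −1.25 (SE 0.52) and miR-15a at −0.67 (SE 0.29), and miR-16b turned to −0.45 from a full sum near 0. miR-21 gave −0.06 on this base, with A3-11 the highest of the 9 fish at 45392 cpm where the full sum had it lowest. miR-1a-3p, miR-184-3p, miR-199a-5p, miR-26a and miR-206-3p have no isomiR counted in all 9 fish and drop out of this sum. Summed without the leading form, the log2 fold changes of miR-21 (0.71), miR-451 (−0.44), miR-26a (−0.60), miR-130b-5p (−0.96) and miR-1c (2.64) had the other sign, and 0 names were called by edgeR, with 6 at an unadjusted p under 0.05. The leading form was picked by its counts in these same fish, so a turn of sign can follow from that choice. For miR-26a the form left out was the one counted in A3-5, A3-6 and A3-9 only.

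Grouped by the cells that other vertebrates make them in, no list had a called member (0 of 103 names tested were called), and lists are described by signs and by the summed level of all their names. Of the erythrocyte names miR-451, miR-144-3p and miR-144-5p, 3 of 3 were higher at 4 d (median log2 fold change 0.19, against −0.12 over all names), but only 1 of 3 without scaling factors, and their sum ran over 75185 to 240972 cpm at 4 d, against 57839 to 132171 cpm at 2 d. Of the white cell names, 4 of 6 were higher (3 of 6 without scaling), with sums of 55487 to 86898 cpm at 4 d, against 50365 to 65505 cpm at 2 d. miR-223-3p, which is known from granulocytes, ranged over 1166 to 29380 cpm at 4 d and 2065 to 13926 cpm at 2 d. Of the names of endothelium and vessel wall, 6 of 7 were higher under each scaling (median 0.53), with sums of 36780.2 to 74507 cpm at 4 d, against 38038 to 48869 cpm at 2 d, and miR-143-3p, known from smooth muscle, ranged over 43.2 to 22785 cpm at 4 d and 789 to 24888 cpm at 2 d.

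The epithelial list of gut, kidney and skin names leaned lower, with 9 of 11 names lower at 4 d (median −1.001; 8 of 11 with RLE factors), while miR-192, its most abundant name, was higher. Reads of this list can stand under more than 1 name, so the signs of its names are not independent. The leading forms of miR-141, miR-200c and miR-215 are the start of those of miR-200a-3p, miR-200b-3p and miR-192. The list's sum ran over 10493 to 23012 cpm at 4 d, against 12433 to 14599 cpm at 2 d. Of the mesenchyme names, 4 of 5 were lower under each scaling, the exception being miR-199a-3p, with sums of 1113 to 7913 cpm at 4 d, against 4107 to 12166 cpm at 2 d. The liver miRNA miR-122-5p ranged from 247 cpm (A3-9) to 250727 cpm (A3-2) at 4 d, and from 468 to 13668 cpm at 2 d, where 3 of the 4 fish lay between 10937 and 13668 cpm. In A3-2 it was the highest of the names analysed, but its leading form was counted only in A3-2 (7905 counts) and A2-16 (317). Its other forms gave 1781, 65, 1652, 32 and 1278 counts at 4 d. Of the 4 gonad names only the 2 strands of miR-202 were tested, and both leaned higher (miR-202-3p 1.88, miR-202-5p 2.17). miR-430a, counted in too few fish to be tested, had mean log2 levels of 4.45 at 4 d and 4.96 at 2 d. miR-430d was at 0 in all 9 fish. Of the brain names only miR-128 was tested, with 0 to 3957 cpm at 4 d and 0 to 6406 cpm at 2 d. miR-375, of pancreatic islets and pituitary, ranged over 0 to 2538 cpm at 4 d and 558 to 2171 cpm at 2 d.

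Grouped by miRNA number, with both strands of a precursor counted, 5 of 5 names of miR-30 were higher at 4 d (median 0.63; 4 of 5 without scaling or with RLE factors), and the sum of the family ran over 12342 to 28552 cpm at 4 d, against 10668 to 12265 cpm at 2 d, apart in all fish. The lowest sum of 4 d lay just above the highest of 2 d, and without scaling factors the sums of the days overlapped. Of all the lists, by cell and by number, only miR-30 and miR-130 with miR-301 had the days apart. Among the 103 single names tested, 1.94% had all fish of 4 d higher and 0.971% all lower. miR-130b-5p, which makes up most of the sum of miR-130 with miR-301, is already among those names, so that list is no further case. miR-30b, miR-30c, miR-30d and miR-30e-5p share a seed, and miR-30a-3p, the opposite strand with another seed, was near 0 in its log2 fold change (0.05). The largest members were miR-30d (4421 to 25231 cpm at 4 d, 4691 to 9776 cpm at 2 d) and miR-30e-5p (3313 to 6192 and 491 to 6006 cpm). The leading form of miR-30e-5p was counted in 5 fish of 4 d and 1 of 2 d, and without it the log2 fold change was −0.34. Those of miR-30b and miR-30c were each counted in 2 fish of 4 d and none of 2 d, and that of miR-30d in 3 fish on each day. No miR-30 name has an isomiR counted in all 9 fish. The names of miR-130 and miR-301 had sums of 832 to 2537 cpm at 4 d, against 351 to 738 cpm at 2 d, most of it miR-130b-5p, and also overlapped without scaling. Of the cluster of miR-23, miR-24 and miR-27, 7 of 8 names were lower under each scaling (median −1.04), with sums of 5643 to 38854 cpm at 4 d, against 13086 to 91596 cpm at 2 d. miR-23a-3p stood at 181.20, 319, 21399.9, 570.1 and 585 cpm at 4 d, against 611, 31711, 360.5 and 37830.2 cpm at 2 d. A single fish of 4 d (A3-6) and 2 of 2 d (A2-12 and A2-16) were high, and these are the 3 with its leading form. The names of miR-15 and miR-16 were split (2 higher, 3 lower, and 1 and 4 without scaling), as were those of miR-181 (1 and 2), and the fish miRNAs miR-2188 and miR-458 were both lower (median −0.78). Of the names of miR-17 to miR-20 and miR-25, 3 of 4 were higher (2 of 4 without scaling), of miR-125 2 of 3 (1 of 3 without scaling) and of miR-26 1 of 2, while miR-148 was lower and no miR-29 name passed the filter. The miR-125 names include miR-125b-5p (0.99) and miR-125c (−2.19), of opposite sign, whose leading form is the same read.

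The kisspeptin males, sampled on the same days from 2 other tanks, allow the comparison of 4 d with 2 d in fish that shared neither tank nor treatment with these. Of the names tested in 20 males, 63 had the same sign of the day difference in control and kisspeptin males and 62 opposite signs, and Pearson's r across names, which are not independent, was −0.15. The difference between the 2 day differences was past the threshold for 0 names (0%) in the test of edgeR and had an unadjusted p under 0.05 for 12 (9.6%), while DESeq2 called 2 (miR-1a-3p and miR-199a-5p) and limma-voom 0. In kisspeptin males by themselves 0 names were called between the days by edgeR and 10 had an unadjusted p under 0.05. miR-1a-3p had the smallest p, with a log2 fold change of 3.74 (SE 1.42) in control males and −3.42 (SE 1.25) in kisspeptin males, a difference of 7.16 (SE 1.91, adjusted p = 0.141). Its log2 levels, scaled over all 30 libraries, were 13.83 ± 2.22 at 4 d and 9.99 ± 2.34 at 2 d in control males (SD, n = 5 and 4), and 11.34 ± 2.71 at 4 d and 15.76 ± 2.08 at 2 d in kisspeptin males (n = 5 and 6).

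miR-199a-5p gave −3.83 (SE 1.48) in control and 1.94 (SE 1.26) in kisspeptin males (adjusted p of the difference = 0.176). Its log2 level was 6.56 ± 1.93 in control males of 4 d and 10.95 ± 0.40 in those of 2 d, the highest mean of these 5 groups, 7.72 ± 2.81 and 6.82 ± 1.88 in kisspeptin males of 4 d and 2 d, and 6.00 ± 2.23 in control females of 2 d. For miR-184-3p the control males of 4 d stood highest, at 8.71 ± 0.62, and kisspeptin males were at 5.23 ± 2.66 at 4 d and 6.03 ± 2.99 at 2 d, where 3.72 is the level of a count of 0 (adjusted p of the difference = 0.292). miR-29b and miR-223-5p, at low counts, had the next smallest p (differences of 11.16, SE 3.02, adjusted p = 0.143, and 11.12, SE 3.37, adjusted p = 0.176), with opposite signs in the treatments. miR-29b was at 0 in every control male of 2 d and every kisspeptin male of 4 d, so the size of its difference depends on the prior count. Its log2 levels were 5.55 ± 1.72 in control males of 4 d and 5.60 ± 2.30 in kisspeptin males of 2 d. Of the 37 counts of miR-223-5p in the 9 control males, 36 were in A3-9. miR-150 gave 1.30 in control and 0.25 in kisspeptin males, the same sign, and miR-192 1.02 and 0.48. miR-202-5p gave 2.18 (SE 1.17) in control males and 0.01 (SE 0.99) in kisspeptin males.

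**Figure D5:**
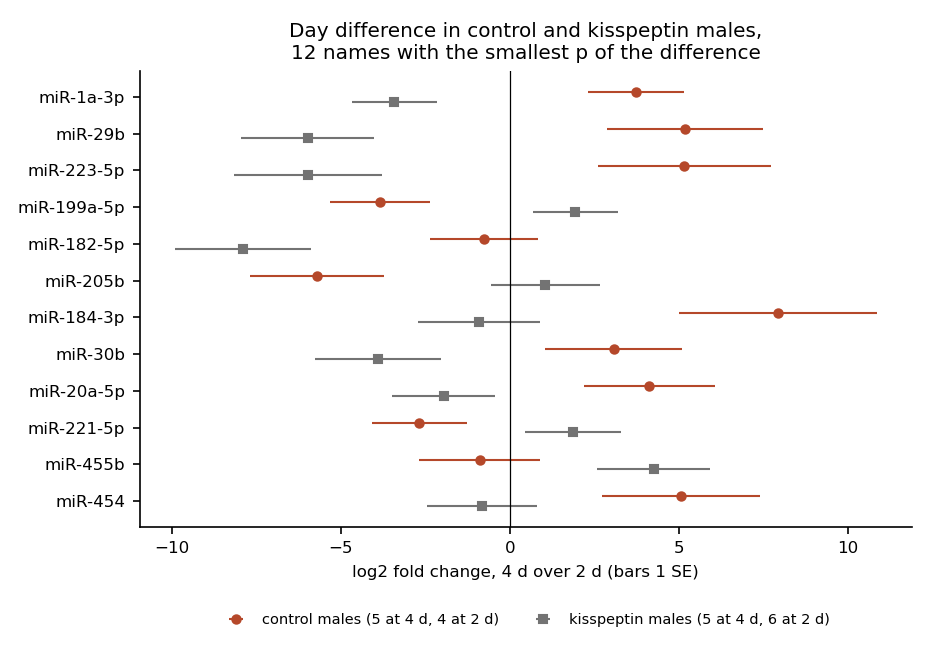
Day difference (log2 fold change, 4 d over 2 d) in control males (circles) and kisspeptin males (squares) for the 12 names with an unadjusted p under 0.05 for the difference between treatments, with bars of 1 SE. Control and kisspeptin males lie on opposite sides of 0 for most of these names, as names picked for a large difference do, and none passed after adjustment. Where a group was at 0 throughout, as for miR-29b, the fitted values depend on the prior count.

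Measures of the libraries themselves overlapped between the days. The level of miR-451 over miR-23a-3p, which in human plasma serves as a sign of red cell lysis, was 7.04 ± 2.17 at 4 d and 4.02 ± 3.70 at 2 d on the log2 scale (SD, n = 5 and 4; two-sided exact permutation test, p = 0.19). It ran from 3.20 to 8.42 at 4 d and from 0.24 to 7.84 at 2 d, and the 3 low fish (A3-6, A2-12 and A2-16) are the 3 with the leading form of miR-23a-3p. Reads of 21 and 22 nt, the usual length of a miRNA, held 79.5% ± 4.94 of the counts at 4 d and 78.5% ± 2.44 at 2 d (exact p = 0.722). At an equal depth of 29918 counts, 84.2 ± 12.8 names and 327 ± 75.3 isomiRs were expected at 4 d, and 92.3 ± 10.8 names and 380.0 ± 86.8 isomiRs at 2 d (exact p = 0.365 and 0.357). The log2 total was 0.75 higher at 4 d (exact p = 0.159). With 5 fish against 4 the exact p cannot go below 0.00794, and no single value passed after adjustment over the 9.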

How the data were processed

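Plasma small RNA libraries of 9 control males were compared, 5 at 4 d and 4 at 2 d. Per the labels and the study's methods, the authors trimmed adapters and 4 random bases at each end, aligned reads to miRBase 21 with Bowtie2 (up to 10 alignments per read) and deposited counts per isomiR, not normalised; the submitters' notes list cutadapt 2.1, Bowtie2 2.4.1 and HTSeq 0.6.0. IsomiR counts were summed here to names. Names with at least 1 cpm in 4 of the 9 fish (also through 1 day alone) were tested with edgeR 4.0.16 (TMM factors, quasi-likelihood test, Benjamini-Hochberg adjustment, threshold 0.05); log2 levels were taken with 1 count added as prior. The SE of an edgeR log2 fold change was derived as the size of that change over the square root of the test's F statistic. Where a day was at 0 throughout, this SE also depends on the prior count. Single values were tested by exact permutation. Intervals and floors (3 counts for a 0) cover counting error only, and reads were not counted as molecules. The edgeR test was checked on simulated counts, which did not copy the absence of whole forms seen here.

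The day differences of control and kisspeptin males were compared by an interaction term over 20 males. Alternatives were limma-voom (limma 3.58.1), DESeq2 1.42.0, other scaling and filters, other sets of samples, a robust fit and single fish left out. Sums without the leading isomiR, and over isomiRs counted in all 9 fish, were alternatives chosen after seeing the data. Named miRNAs were the 10 with the highest mean level, the 8 with the smallest p in each direction, the miR-1 names, the 2 most abundant of each marker list and those whose days did not overlap; named isomiRs were the 4 with the smallest p in each direction, and interactions the 3 with the smallest p. The members and lists were chosen with earlier results of these data known. Genome positions were not analysed here.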

Additional observations from a re-analysis of the deposited data

Results flagged for a closer look

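Dixon's criterion was applied to 104 sets of fish, 52 measures on each day, and 9 sets held a fish far from the others, where chance flags about 1 in 20 sets, or 5.2 here. All values are log2 levels. At 4 d, A3-11 was low in miR-21 (15.73, the nearest fish 17.41), and A3-6 was low in miR-451 over miR-23a-3p (a difference of 3.20, the nearest 7.46) and high in miR-23a-3p itself (14.39, the nearest 9.23). A3-5 was low in miR-25-3p (3.99, the nearest 10.90), and A3-2 was low in miR-458 (3.99, the nearest 7.41), where 3.99 is the level of a count of 0. At 2 d, A2-16 was low in miR-202-5p (8.26, the nearest 10.45), A2-12 in miR-122-5p (8.92, the nearest 13.42) and A2-11 in miR-223-3p (11.02, the nearest 13.52), while A2-11 was high in miR-143-3p (14.60, the nearest 10.43). A3-11 is the fish without the leading form of miR-21, A3-6 is the only fish of 4 d with that of miR-23a-3p, and A2-11 is the only fish of 2 d with that of miR-143-3p.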

How the results depend on the processing

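The number of names past the threshold, 0 with edgeR, was 2 with limma-voom, 4 with DESeq2 and 1 (miR-184-3p) with a filter of 10 counts in 4 fish. For isomiRs, 1 was called by edgeR, 6 with limma-voom, 5 with DESeq2, 25 of 1292 with no filter, and 0 with 1 cpm in all fish, with 10 counts in 4 fish or with all 30 samples in the fit, and 0 to 2 with single fish left out. The difference between the day differences of control and kisspeptin males gave 2 calls with DESeq2 and 0 to 1 with single fish left out (miR-1a-3p, without 1 kisspeptin male of 4 d). Without scaling factors, the miR-21 difference was −0.714 (exact permutation p = 0.0317) and day held 17.3% of the variation (exact p = 0.0476). With single fish left out, day held 15.4 to 20.3% (18.5% without A3-11, exact p = 0.0286, the 1 fish whose absence changed this call), the share of the 10 highest names differed by −9.24 to −6.17 percentage points (−4.88 for the single highest name of each library in place of the 10), and the miR-1a-3p level by 2.95 to 4.55. The share of isomiRs, in place of counts, at 21 and 22 nt differed by −1.44 percentage points, the other way. Several uncalled log2 fold changes turned sign. Without scaling factors these were miR-16b (−0.10), miR-144-5p (−0.033), miR-125a (−0.12) and miR-223-3p (−0.078). With limma-voom they were miR-223-3p (−0.50), miR-199a-3p (−0.44), miR-25-3p (−1.02) and miR-181a-5p (−0.50). Without the leading isomiR, which was picked by its counts in these same fish, they were miR-21 (0.71), miR-22a (0.34), miR-451 (−0.44), miR-16b (−0.10), miR-130b-5p (−0.96), miR-26a (−0.60), miR-1c (2.64), miR-199a-3p (−0.031) and miR-30e-5p (−0.34). miR-16b was −0.45 over isomiRs counted in all 9 fish, miR-125a −0.12 with 10 counts in 4 fish, miR-375 0.0014 and miR-25-5p 0.12 with no filter, and miR-375 0.034 with 20 males in one fit. miR-22a was 0.034 with DESeq2 and with RLE factors, 0.093 with 1 cpm in all fish, 0.092 with no filter, and 0.11 with 20 males in one fit. With single fish left out, both signs were met for miR-22a (−0.13 to 0.13), miR-16b (−0.19 to 0.30), miR-144-5p (−0.071 to 0.42), miR-125a (−0.11 to 0.41), miR-223-3p (−0.34 to 0.40), miR-143-3p (−0.087 to 3.21), miR-128 (−4.04 to 0.83), miR-375 (−0.60 to 0.32), miR-25-5p (−0.70 to 1.41) and miR-181a-5p (−0.81 to 2.45). The cause of these changes was not tested.

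No paired analysis was possible because the days hold different fish, with 1 fish number (11) in common. Day and tank cannot be told apart, the sequencing run of each library is not in the labels, and the spread between fish (common dispersion 1.58) and totals of 29918 to 133423 counts limit what could be called.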

Other observations

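Of 11 miRNAs with at least 20 counts of each strand in the 9 fish, 10 had the same strand higher on both days. The exception was miR-199a, whose log2 ratio of the 5p to the 3p strand was −1.41 ± 2.68 at 4 d and 3.13 ± 3.03 at 2 d (SD, n = 5 and 4). miR-199a-3p had no count in A3-2, A3-9 and A2-16 and miR-199a-5p none in A3-2, so these ratios rest in part on the level of a count of 0. The leading form of miR-199a-3p was counted in A3-5 alone. miR-126a stood at −7.26 ± 1.92 at 4 d and −8.00 ± 2.36 at 2 d, and miR-202 at 4.88 ± 1.36 at 4 d and 4.84 ± 1.65 at 2 d. The names of miR-29, counted in too few fish to be tested, had counts only at 4 d. Of the 172 names, 16 were counted only at 4 d and 13 only at 2 d. miR-29b had 61.7 to 154 cpm in A3-5, A3-6 and A3-9, the libraries with the highest totals, and miR-29a had 167 cpm in A3-11. No fish of 2 d had a count of either, where a 0 allows up to 43.8 to 90.1 cpm by counting error.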
